A study of Mus musculus with 6 samples.

Results

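Podocytes are the epithelial cells that wrap the capillaries of the glomerulus, the filtering unit of the kidney. Their interlocking foot processes are bridged by the slit diaphragm, a cell junction built on nephrin, and held in shape by actin bundles. A small set of transcription factors, with Wt1 the best known, keeps these cells differentiated and out of the cell cycle. Of this programme, 8 of the 46095 genes in the count table were followed here by symbol. They were Nphs1, Magi2, Ptpro, Podxl, Synpo, Wt1, Tcf21 and Cdkn1c, and all 8 had enough counts to be among the 14611 genes tested. The 8 were selected on their counts in the same comparison of genotype labels that is described below, so their differences are given as a description and no test is attached to them.

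RNA-seq was performed on primary tubular epithelial cells (PTECs) from mice at 10 weeks of age, with the VHL-KO label on 3 libraries (replicates 1, 2 and 4) and the VHL-KO;SETD2-KO label on 3 (replicates 2, 3 and 4). In the first genotype a floxed VHL gene is deleted by Cre under the Cdh16 (Ksp-cadherin) promoter, which is active in tubular epithelium, and in the second Setd2 is deleted by the same Cre. By their labels all 6 libraries share the VHL deletion, and Cdh16 is known as a gene of tubules rather than of podocytes. The series' design text gives 3 mice per genotype, and p-values measure the spread between these libraries.

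Totals ran from 11168552 to 17883466 counts per library. Levels are given as CPM, the count divided by the library's total in units of 1e6 counts, scaled by edgeR's TMM factors, and 3 counts, taken as the smallest detectable signal, correspond to 0.168 to 0.269 CPM before that scaling. The library labelled VHL-KO replicate 4 stood apart. Its rank correlation with the other 5 libraries over the tested genes was 0.717 to 0.765, against 0.937 to 0.986 among those 5, and 11.3% of its counts lay on mitochondrially encoded genes, against 25.9% to 36.4%. Fold changes of the 8 genes and counts of calls are therefore given with and without it. Setd2 itself was at 71.5, 73.9 and 12.4 CPM in replicates 1, 2 and 4 labelled VHL-KO. Where the label was VHL-KO;SETD2-KO it was at 57.4 to 89.6 CPM, and the log2 fold change without VHL-KO replicate 4 was 0.05. It was not lower under the second label, so its deletion is not seen in these counts per gene. The paper reports reduced SETD2 by western blot and RT-qPCR in the double-knockout mice. The libraries are named by their labels throughout. Vhl was at 14.1, 12.9 and 25.8 CPM against 14.4, 17.9 and 11.9 CPM (139 to 317 counts), and no library with intact Vhl was compared here, so its shared deletion rests on the labels. Proximal tubule markers were present in every library, with Slc34a1, the sodium-phosphate cotransporter of this segment, at 2188 to 14210 CPM. Podocyte markers other than the 8 genes were present as well, and 17 of them summed to 1449 to 2105 CPM under the VHL-KO label and to 1942 to 3614 CPM under the other.

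Promoter windows from RefSeq (build GRCm38.p6, 250 bases before to 50 after a start site) covered 4 of the 8 genes with 5 windows, for Nphs1, Ptpro, Tcf21 and Magi2, the last with a pair of start sites. They were searched on both strands for CANNTG (the E-box read by basic helix-loop-helix factors such as Tcf21), TAATTA (a homeodomain core) and GCGNGGGNG (a zinc finger site of the EGR and WT1 type). These motifs occurred in 72.3%, 5.3% and 12.3% of 32851 windows of the same length. The Nphs1 and Tcf21 windows held none of the 3. The start site of the Nphs1 window lies 1743 bases downstream of the annotated gene start. The stretch before that gene start was thus not searched. The 3 windows with a match are shown, up to the first annotated exon or the start site, with the matches in capitals. No match in this stretch says nothing about a factor's binding, and a match is not a site.
Ptpro, chr6:137252049-137252298, plus strand: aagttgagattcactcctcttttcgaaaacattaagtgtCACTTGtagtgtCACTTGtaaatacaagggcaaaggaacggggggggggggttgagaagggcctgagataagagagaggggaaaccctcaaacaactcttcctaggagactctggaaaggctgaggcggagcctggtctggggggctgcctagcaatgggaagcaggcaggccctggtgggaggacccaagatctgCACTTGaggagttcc
Magi2, chr5:19226796-19227035, plus strand: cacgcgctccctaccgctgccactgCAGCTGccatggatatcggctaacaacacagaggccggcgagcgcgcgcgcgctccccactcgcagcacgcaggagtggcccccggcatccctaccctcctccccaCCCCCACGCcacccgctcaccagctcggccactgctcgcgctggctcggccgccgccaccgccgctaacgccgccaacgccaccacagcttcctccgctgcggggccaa
Magi2, second start site, chr5:19907268-19907517, plus strand: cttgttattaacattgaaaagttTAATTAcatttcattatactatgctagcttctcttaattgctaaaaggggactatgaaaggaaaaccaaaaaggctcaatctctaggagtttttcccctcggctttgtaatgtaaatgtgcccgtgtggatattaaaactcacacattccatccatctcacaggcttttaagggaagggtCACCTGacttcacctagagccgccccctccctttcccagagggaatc
Ptpro held 3 E-boxes, each Magi2 window held 1, the first Magi2 window held the zinc finger site on its minus strand, and the second held the homeodomain core.

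All 8 genes had a higher fitted level under the VHL-KO;SETD2-KO label. Their log2 fold changes ran from 0.05 to 1.49 with a median of 1.05, against a median of 0.0093 over all tested genes. In the 5 libraries other than VHL-KO replicate 4 the 8 genes kept nearly 1 order. Replicate 1 of the VHL-KO label was lowest for 8 of 8, and under the VHL-KO;SETD2-KO label replicates 2 and 4 were the highest pair for 8 of 8. Replicate 3 of the latter was in the middle for 6 and below VHL-KO replicate 2 for the other two, Podxl and Ptpro. The 2 labels did not overlap for 3 of the 8, Nphs1, Wt1 and Magi2. Among all tested genes 9.62% were higher without overlap. Nothing is read from the members' count, order or median beside all genes, because the labels were used in choosing these members. In these bulk samples, fewer cells of a type and less RNA per cell cannot be told apart.

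**Figure D1:**
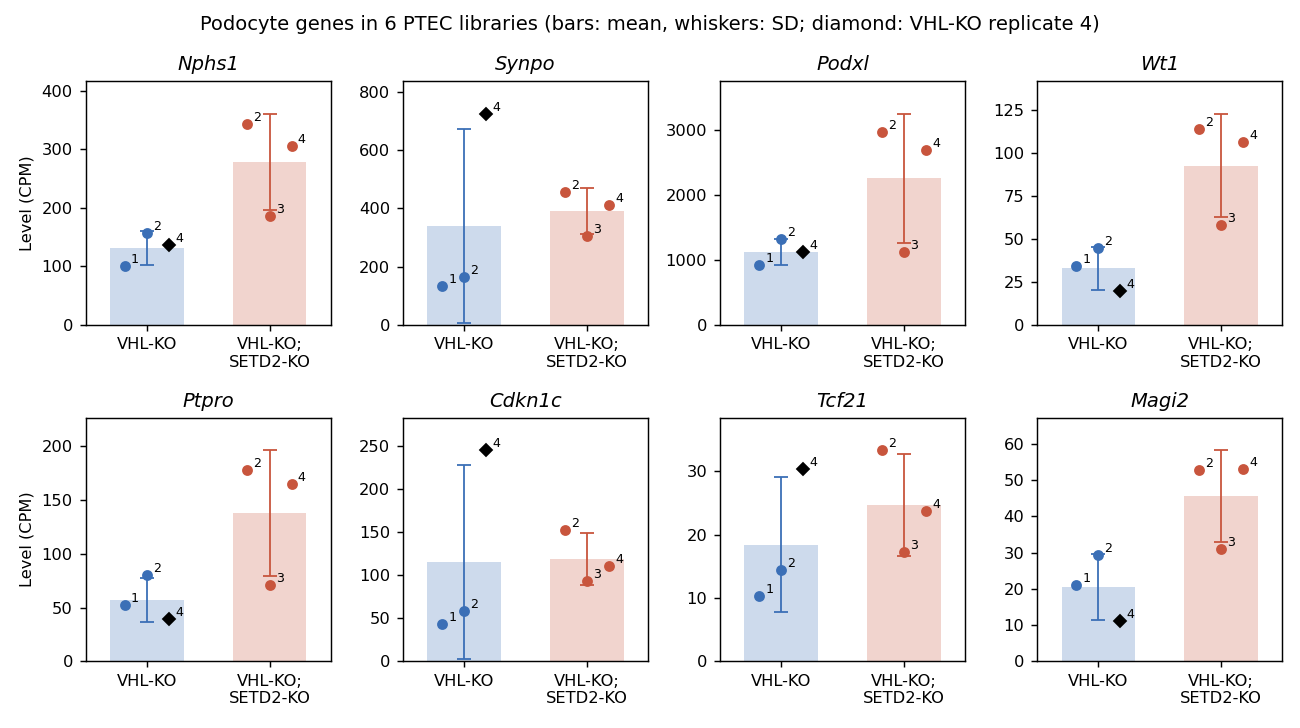
Level in CPM (linear axis from 0) of each podocyte gene in the 3 libraries labelled VHL-KO and the 3 labelled VHL-KO;SETD2-KO; bars are means, whiskers SD, points libraries with their replicate number. VHL-KO replicate 4, the black diamond, is the highest library for Synpo and Cdkn1c and the lowest for Wt1, Ptpro and Magi2.

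Nphs1 (ENSMUSG00000006649, GRCm38 chr7:30458315-30487223, plus strand) encodes nephrin, the adhesion protein that spans the slit. In replicates 1, 2 and 4 of the VHL-KO label it had 1648, 1690 and 1460 counts, or 99.9, 156.4 and 136.5 CPM. Replicates 2, 3 and 4 with the VHL-KO;SETD2-KO label had 6457, 3290 and 4881 counts, or 343, 185 and 306 CPM. The labels did not overlap, and the lowest library of the second label exceeded the highest of the first by a small margin. Means were 131 ± 28.6 CPM and 278 ± 82.6 CPM (SD, n = 3 each), a log2 fold change of 1.09 (standard error 0.44). Without the library labelled VHL-KO replicate 4 it was 1.11 (standard error 0.34). Genes annotated across Nphs1 had few counts of their own. Its antisense gene Nphs1os had 0 counts in 5 libraries and 1 in the other, and the pseudogene Rps12-ps4 had 13 to 51.

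Magi2 (ENSMUSG00000040003, chr5:19227036-20704792, plus strand) encodes a scaffold protein that binds nephrin from inside the cell. It stood at 21.1, 29.4 and 11.2 CPM under the VHL-KO label and at 52.6, 31.0 and 53.0 CPM under the VHL-KO;SETD2-KO label, with replicates in the order given above. Again the labels did not overlap, although replicates 2 of the first and 3 of the second lay close together. Means were 20.6 ± 9.11 and 45.6 ± 12.6 CPM (SD, n = 3 each), and the log2 fold change was 1.15 (standard error 0.48), or 0.85 (standard error 0.29) without VHL-KO replicate 4.

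Ptpro (ENSMUSG00000030223, chr6:137252319-137463233, plus strand) encodes GLEPP1, a receptor-type tyrosine phosphatase of the foot process surface. Levels were 52.1, 79.8 and 39.0 CPM under the VHL-KO label and 177, 70.7 and 165 CPM under the other. Replicate 3 of the VHL-KO;SETD2-KO label fell between replicates 1 and 2 of the VHL-KO label, so the groups overlapped. The log2 fold change was 1.27 (standard error 0.51), and 1.06 (standard error 0.43) without VHL-KO replicate 4.

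Podxl (ENSMUSG00000025608, chr6:31519488-31563981, minus strand) encodes podocalyxin, the charged sialomucin that coats podocytes and also lines blood vessels. It was the most abundant member per transcript length. Its levels were 913, 1325 and 1127 CPM under the VHL-KO label and 2966, 1123 and 2684 CPM under the VHL-KO;SETD2-KO label. Replicates 2 and 4 of the second label stood above the other 4 libraries, and replicate 3 lay within the range of the VHL-KO label. Means were 1121 ± 206 and 2257 ± 993 CPM (SD, n = 3 each), with a log2 fold change of 1.01 with all libraries (standard error 0.52) and 1.01 without VHL-KO replicate 4 (standard error 0.47).

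Synpo (ENSMUSG00000043079, minus strand of chromosome 18) encodes synaptopodin, an actin-associated protein of foot processes. The libraries labelled VHL-KO held 134, 163 and 725 CPM, and the other label 457, 305 and 412 CPM. The VHL-KO label thus contained both the lowest libraries and the highest. With an SD of 333 CPM on a mean of 341 CPM under that label, the log2 fold change was 0.20 (standard error 0.68). It became 1.39 (standard error 0.24) without VHL-KO replicate 4, and -0.16 or -0.11 when VHL-KO replicate 1 or 2 was left out instead.

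Wt1 (ENSMUSG00000016458, chr2:105126529-105173616, plus strand) encodes the zinc finger factor that defines podocyte identity and acts on many genes of the slit diaphragm. Its levels were 34.2, 44.8 and 19.6 CPM under the VHL-KO label and 114, 58.2 and 106 CPM under the VHL-KO;SETD2-KO label, without overlap. Means were 32.9 ± 12.6 and 92.7 ± 30.2 CPM (SD, n = 3 each). Among the members it had the log2 fold change furthest from 0 with all libraries, 1.49 (standard error 0.48), and 1.23 (standard error 0.32) without VHL-KO replicate 4. The antisense gene Wt1os, added after its values were seen, starts 18 bases away on the other strand. It had 47, 39 and 12 counts under the VHL-KO label and 139, 102 and 104 under the other, which is 0.0571 to 0.0987 of the Wt1 count in the same library.

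Tcf21 (ENSMUSG00000045680, chr10:22817281-22820174, minus strand) encodes a basic helix-loop-helix factor needed for podocyte maturation. Levels were 10.2, 14.4 and 30.4 CPM under the VHL-KO label and 33.3, 17.3 and 23.6 CPM under the second label. The groups overlapped through VHL-KO replicate 4, which exceeded replicates 3 and 4 of the other label. The log2 fold change was 0.43 (standard error 0.51), and 1.00 (standard error 0.32) without that library. Its antisense neighbour Gm10824 had 0 to 12 counts.

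Cdkn1c (ENSMUSG00000037664, chr7:143458339-143461050, minus strand) encodes p57, a cyclin-dependent kinase inhibitor that marks podocytes that have left the cell cycle. It stood at 43.3, 58.3 and 245 CPM under the VHL-KO label and at 153, 94.0 and 111 CPM under the other. The pattern was that of Synpo, with the highest value and the lowest values under 1 label. The log2 fold change of Cdkn1c was 0.05 (standard error 0.68) with all libraries and 1.23 (standard error 0.26) without VHL-KO replicate 4. It was below 0 when another library was left out, at -0.32 without VHL-KO replicate 1, -0.25 without VHL-KO replicate 2 and -0.14 without VHL-KO;SETD2-KO replicate 2.

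**Figure D2:**
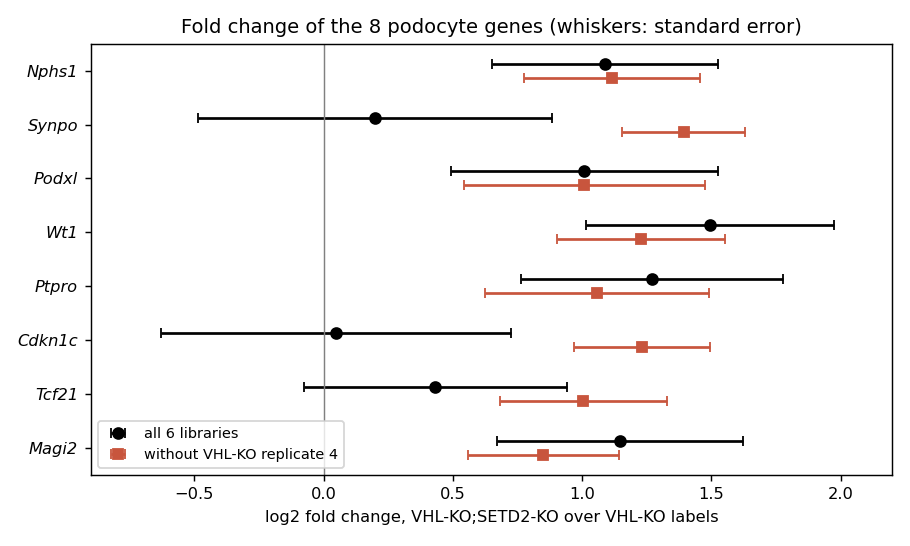
Log2 fold change (second label, VHL-KO;SETD2-KO, over the first, VHL-KO) of each podocyte gene with its standard error, fitted with all 6 libraries (black circles) or without VHL-KO replicate 4 (red squares). Without that library the 8 values lie between 0.85 and 1.39, whereas with it Synpo, Cdkn1c and Tcf21 lie nearer to 0.

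Leaving out VHL-KO replicate 4 thus narrowed the 8 log2 fold changes to between 0.85 and 1.39, with a median of 1.09. The groups then did not overlap for 6 of the 8, with Podxl and Ptpro as the exceptions, where 20.1% of all tested genes were higher and 21.4% lower without overlap. Without VHL-KO replicate 2 the count was 5 of 8, against 14.6% of all tested genes, and without VHL-KO;SETD2-KO replicate 3 it was 5 of 8, against 20.2%. As before, nothing is read from these counts.

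The contrast between VHL-KO replicate 4 and the rest was also visible in ratios of counts within a library, which need no scaling. Synpo counts were 1.04 to 1.65 times those of Nphs1 in 5 libraries and 5.31 times in VHL-KO replicate 4. For Cdkn1c the ratio to Nphs1 was 0.363 to 0.507 in the 5 and 1.80 in that library, and for Tcf21 it was 0.0772 to 0.103 and 0.223. Other members went the opposite way. Wt1 was 0.286 to 0.347 of Nphs1 in the 5 libraries and 0.144 in VHL-KO replicate 4, Magi2 was 0.153 to 0.211 and 0.0822, and Ptpro was 0.382 to 0.538 and 0.286. Podxl changed least, at 6.06 to 9.14 times Nphs1 in the 5 and 8.25 times in that library. For every member set against Nphs1 other than Podxl, the ratio in VHL-KO replicate 4 thus lay outside the range of the other 5 libraries.

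Base composition moved with this contrast. The GC content of the longest coding transcript was 58.1% for Synpo and 59.4% for Cdkn1c, which were 4.88 and 4.83 times as high in VHL-KO replicate 4 as in the mean of replicates 1 and 2. It was 50.2% for Ptpro, 50.7% for Magi2 and 53.7% for Wt1, which were at 0.591, 0.444 and 0.497 of that mean. Tcf21, at 49.9% GC and 2.46 times, did not follow the order. Over the 70 tested podocyte genes, members and others together, Spearman's rho between GC content and this log2 ratio was 0.85, and over 11988 genes at 1 CPM or more it was 0.78. Of the 35 podocyte genes at or above the median GC content of 51.7%, 31 were higher in VHL-KO replicate 4, against 1 of the 35 below it. These are descriptions across genes that share the same 3 libraries and also differ in transcript length (rho of -0.495 for the podocyte genes), and the part of base composition in the genotype comparison was not tested.

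**Figure D3:**
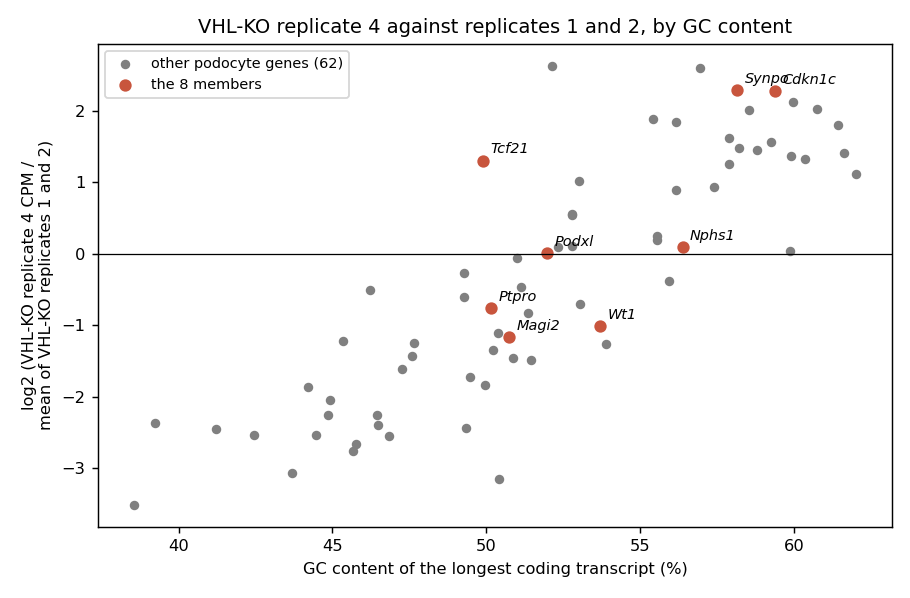
GC content of the longest coding transcript (%, horizontal) against the log2 ratio of CPM in VHL-KO replicate 4 to the mean of VHL-KO replicates 1 and 2 (vertical), for the 8 members (red, named) and 62 other tested podocyte genes (grey). Genes rich in GC lie above 0 and genes poor in GC below it, with Tcf21 above the general course.

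To compare levels between genes, CPM was divided by the length of the longest coding transcript. The level per kilobase under the VHL-KO;SETD2-KO label was highest for Podxl, at 420 ± 185 CPM per kb (SD, n = 3). Synpo followed at 75.8 ± 15.1, Cdkn1c at 62.8 ± 16.0 and Nphs1 at 60.4 ± 17.9 CPM per kb, which did not differ from each other beyond their spread. Wt1 at 30.0 ± 9.76 and Ptpro at 27.0 ± 11.4 CPM per kb formed a similar pair, ahead of Tcf21 at 13.8 ± 4.50 and Magi2 at 6.92 ± 1.91. Under the VHL-KO label Podxl was again first at 208 ± 38.3 and Magi2 last at 3.13 ± 1.38 CPM per kb. Between them, Synpo at 66.1 ± 64.6 and Cdkn1c at 60.8 ± 59.2 were set by replicate 4, and fell to 28.8 and 26.7 CPM per kb without it, beside 27.8 for Nphs1. The transcript forms in use are unknown, so these orders hold for the annotated lengths only.

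A further 64 genes of podocyte biology, listed by role, were examined in the same comparison, and 62 had enough counts. The list was chosen with earlier results of these data known, so its p-values and counts are not independent support. With edgeR's quasi-likelihood test, at 0.05 for the unadjusted p and 1.5 for the least fold change in either direction, 9 of the 62 rose under the VHL-KO;SETD2-KO label and 0 fell, where 2.65% of all tested genes rose and 4.68% fell. With p-values adjusted over all tested genes the counts were 0 and 0 by edgeR, where 0% of all tested genes were higher and 0.00684% lower. By DESeq2 they were also 0 and 0, but only 1292 genes had an adjusted p there, of which 0.0774% were higher and 3.87% lower. Kirrel, Fyn, Nck2, Foxc1, Plce1, Thsd7a and Pla2r1 had no adjusted p from DESeq2 and could not be called. At its unadjusted p DESeq2 gave 9 higher and 1 lower, against 2.86% and 7.75% of all tested genes. In 18 of the 62 the labels did not overlap towards higher and in 1 towards lower, where 9.62% and 11% of all tested genes did so. The fitted level was higher in 54 and lower in 8, where 7374 of the 14611 tested genes were higher and 7237 lower. The median log2 fold change was 0.61, against 0.0093 over all tested genes. The count of 9 depended on which library was left out. It stayed at 9 without VHL-KO;SETD2-KO replicate 3, where 354 of 14928 tested genes rose. Without VHL-KO replicate 2 it was 7, where 395 of 15164 tested genes rose. It was 27, with 0 lower, without VHL-KO replicate 4, where 8.29% of all tested genes rose and 7.14% fell, and 3, 1 and 2 without VHL-KO replicate 1, VHL-KO;SETD2-KO replicate 2 and VHL-KO;SETD2-KO replicate 4, where the share of all tested genes that rose was also lower, at 1.31%, 1.19% and 1.24%.

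**Figure D4:**
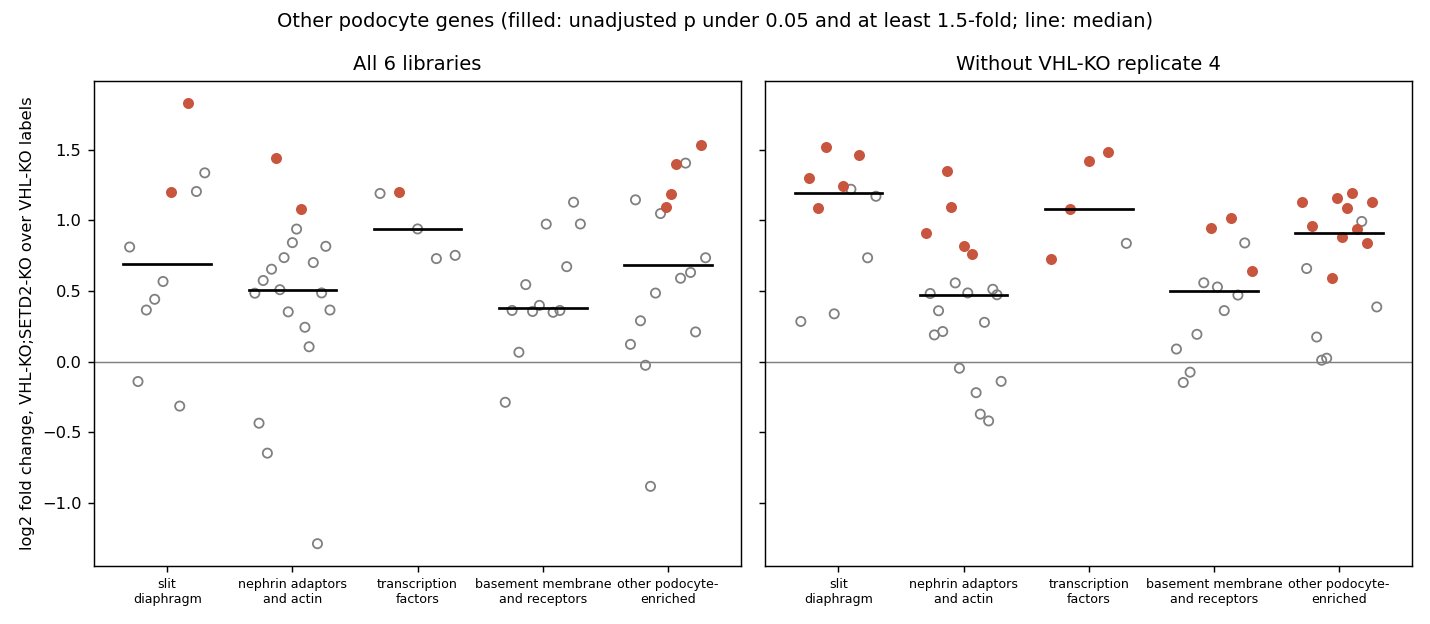
Log2 fold change (second label, VHL-KO;SETD2-KO, over the first, VHL-KO) of 62 other podocyte genes by role, with all 6 libraries (left) and without VHL-KO replicate 4 (right); each point is a gene, lines are medians, and filled points passed the unadjusted test at 0.05 with 1.5 as the least fold change. There are 9 filled points on the left and 27 on the right, all above 0.

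Of the 10 tested genes of the slit diaphragm, 2 rose and 0 fell. Kirrel, which encodes the nephrin partner Neph1, had 17.6, 22.6 and 21.7 CPM against 57.8, 32.3 and 52.5 CPM, and a log2 fold change of 1.20 (standard error 0.40, unadjusted p = 0.0158, adjusted p = 0.625 from edgeR). Cd2ap, an adaptor that links the slit to actin, had 116, 130 and 10.8 CPM against 160.5, 128 and 161 CPM, so the labels overlapped. Kirrel2 was at most 1.96 CPM in any library.

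Among 19 genes of nephrin signalling and actin, 2 rose and 0 fell. Fyn, the kinase that phosphorylates nephrin, had 23.0, 15.9 and 16.2 CPM against 62.1, 30.6 and 56.7 CPM (log2 fold change 1.44, standard error 0.43, unadjusted p = 0.00988, adjusted p = 0.625 from edgeR). Nck2, an adaptor that couples phosphorylated nephrin to actin, had 14.1, 15.0 and 6.08 CPM against 27.5, 21.9 and 24.9 CPM, and a log2 fold change of 1.08 (standard error 0.45, unadjusted p = 0.0415, adjusted p = 0.625 from edgeR). Its relative Nck1 did not pass, at 20.1, 23.4 and 4.21 CPM against 36.3, 24.4 and 30.7 CPM, although the labels did not overlap. The same held for Sptan1, Pik3r1, Myo1e and Arhgap24, with log2 fold changes of 0.49, 0.70, 0.84 and 0.57. Pik3r2, a regulatory subunit of PI3 kinase, was the 1 gene of the 62 lower without overlap, at 27.6, 27.4 and 96.2 CPM against 20.03, 23.3 and 18.6 CPM (log2 fold change -1.29, adjusted p = 0.625 from edgeR).

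The fitted level was higher under the second label for 5 of 5 podocyte transcription factors, where it was higher for 7374 of the 14611 tested genes. Foxc1, a forkhead factor, rose from 9.64, 8.70 and 7.01 CPM to 25.2, 16.8 and 16.4 CPM, a log2 fold change of 1.20 (standard error 0.39, unadjusted p = 0.0149, adjusted p = 0.625 from edgeR). The others did not pass. Lmx1b, a LIM homeodomain factor, had 6.55, 8.42 and 23.0 CPM against 25.4, 16.3 and 21.1 CPM, and thus resembled Tcf21 in its high value in VHL-KO replicate 4. Dach1 did not overlap, with a log2 fold change of 1.19, and Foxc2 had 0.94.

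For the 12 genes of the glomerular basement membrane and its receptors, 0 rose and 0 fell. Col4a3, a chain of the mature membrane's collagen IV that podocytes produce, had 458, 543 and 56.4 CPM against 497, 340.0 and 522 CPM, and a log2 fold change of 0.36 (standard error 0.74). It became -0.15 without VHL-KO replicate 4. Npnt and Nid1 did not overlap between labels, with log2 fold changes of 0.97 and 1.13 that did not pass the test.

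Of the 16 remaining podocyte-enriched genes, 4 rose and 0 fell. They were Plce1, a phospholipase C mutated in nephrotic syndrome, Thsd7a and Pla2r1, which encode podocyte surface antigens, and Nes, an intermediate filament gene. Their log2 fold changes were 1.40, 1.53, 1.19 and 1.09, with unadjusted p-values of 0.0337, 0.0398, 0.0449 and 0.0498 and an adjusted p of 0.625 for each from edgeR. Plce1 had 22.2, 33.2 and 11.7 CPM against 74.4, 29.5 and 72.8 CPM, with VHL-KO;SETD2-KO replicate 3 again within the range of the VHL-KO label. Vegfa, the endothelial growth factor that podocytes and tubules secrete, had 283, 343 and 114 CPM against 403, 404 and 423 CPM without overlap, and did not pass. Robo2 and Iqgap2 did not overlap either, with log2 fold changes of 1.41 and 1.05.

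Without VHL-KO replicate 4, DESeq2 gave 16 of the 62 genes as higher and 0 as lower at an adjusted p under 0.05, where 3.86% and 5.09% of all genes with an adjusted p were called, a setting added after the data had been seen. At its unadjusted p DESeq2 gave 30 and 0, against 9.5% and 7.29%. After adjustment edgeR gave 0 and 0 in the same 5 libraries, where 0.00667% of all tested genes were lower. The 16 included the slit diaphragm genes Kirrel, Ddn and Cdh3, 4 of nephrin signalling and actin (Nck2, Fyn, Actn1 and Inf2), the factors Lmx1b, Foxc1 and Foxc2, Npnt, Lamb2 and Itga3 at the basement membrane, and Rhpn1 and Efnb1. Ddn, which encodes the slit protein dendrin, had the lowest adjusted p, 1.78e-06 from DESeq2, at 22.4 and 31.2 CPM under the VHL-KO label and 87.8, 63.4 and 79.1 CPM under the other. In the excluded library Ddn was at 116 CPM.

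Markers of other cells moved in the same libraries. Endothelial markers, 12 in number and including Kdr and Ehd3 of the glomerular capillaries, summed to 2695 to 3636 CPM under the VHL-KO label and to 7891, 3522 and 6896 CPM in replicates 2, 3 and 4 of the VHL-KO;SETD2-KO label. For 11 of the 12, replicates 2 and 4 of the latter exceeded the other 3 of the 5, the order seen for 8 of 8 podocyte members. It was also seen for 43 of the 62 other podocyte genes and for 0 of the 9 proximal tubule markers. The share of all tested genes with that order is not given here, so nothing is read from these counts. The summed members were 0.485, 0.515, 0.544, 0.535 and 0.560 of the summed endothelial markers in those 5 libraries, and 0.817 in VHL-KO replicate 4. The 17 podocyte markers outside the members went the other way. Their sum was 0.62 and 0.579 of the endothelial sum in VHL-KO replicates 1 and 2, and 0.507 in replicate 4. Under the VHL-KO;SETD2-KO label it was 0.458, 0.551 and 0.481 in replicates 2, 3 and 4. Plat, tissue plasminogen activator, was the 1 endothelial marker that rose, where 2.65% of all tested genes did (log2 fold change 1.14, unadjusted p = 0.0339, adjusted p = 0.625 from edgeR). Its call was lost without VHL-KO replicate 1, VHL-KO;SETD2-KO replicate 2 or VHL-KO;SETD2-KO replicate 4, and 0 of the 12 were then called higher. Without VHL-KO replicate 4 the endothelial markers called higher numbered 3 of 12, where 8.29% of all tested genes rose. Without VHL-KO;SETD2-KO replicate 3 they numbered 6, where 354 of 14928 tested genes rose. Kdr, the VEGF receptor, had 580, 708 and 210 CPM against 1611, 467 and 1328 CPM and did not pass.

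Proximal tubule markers went the opposite way. The 9 markers summed to 13390, 12730 and 25910 CPM under the VHL-KO label and to 5751, 8450 and 7025 CPM under the VHL-KO;SETD2-KO label, without overlap. Of the 9, 4 fell (Slc34a1, Slc22a6, Hnf4a and Aqp1) and 0 rose, where 4.68% of all tested genes fell and 2.65% rose. Log2 fold changes of the 4 were -1.66, -1.93, -1.04 and -1.39, with adjusted p = 0.625 for each from edgeR. Without VHL-KO replicate 4 these values were -0.95, -1.41, -0.86 and -0.69, and 6 of the 9 fell, where 7.14% of all tested genes fell. Slc22a6, an organic anion transporter, kept its call with each library left out. Slc34a1 lost it without VHL-KO;SETD2-KO replicate 2 or 4, Aqp1 without any 1 library of that label, and Hnf4a without any 1 library other than VHL-KO replicate 4. Lrp2, the endocytic receptor megalin, had 3384, 3351 and 940 CPM against 1167, 1681 and 1734 CPM. The 8 mesangial and mural markers overlapped between labels, at 176 to 729 and 140 to 561 CPM in sum. Of these, 0 were called, where 2.65% of all tested genes rose and 4.68% fell. Ren1, the renin gene, was at 301 CPM in VHL-KO replicate 4 and at 6.91 to 68.1 CPM in the other libraries, and Itga8 reached 260 CPM in VHL-KO;SETD2-KO replicate 2. Thick limb, distal and collecting duct markers overlapped as well, at 1205 to 5120 and 1517 to 4211 CPM in sum. Where 2.65% of all tested genes rose and 4.68% fell, 2 of these 10 rose and 0 fell. They were Calb1 and Atp6v1g3 (log2 fold changes 1.87 and 1.81, adjusted p = 0.625 for each from edgeR). Calb1 did not pass without VHL-KO replicate 1, VHL-KO replicate 4 (1.56) or VHL-KO;SETD2-KO replicate 3 (0.96), nor did Atp6v1g3 without the last of these (1.44). Umod and Slc12a3 were highest in VHL-KO replicate 4, at 2955 and 1676 CPM, and next highest in VHL-KO;SETD2-KO replicate 3, at 1528 and 1590 CPM. Macrophage markers summed to 116 to 648 and 132 to 214 CPM. Where 4.68% of all tested genes fell and 2.65% rose, 2 of these 7 fell and 0 rose. They were C1qa and C1qb (log2 fold changes -2.08 and -2.02, adjusted p = 0.625 for each from edgeR). Without VHL-KO replicate 4 these were -0.93 and -1.10 and neither passed, and both calls were also lost without VHL-KO;SETD2-KO replicate 2 or 4, as was that of C1qb without replicate 3. Cd74 and Csf1r were highest in VHL-KO replicate 4, at 456 and 79.9 CPM. The part that the mix of cells in each preparation has in the podocyte differences was not tested.

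**Figure D5:**
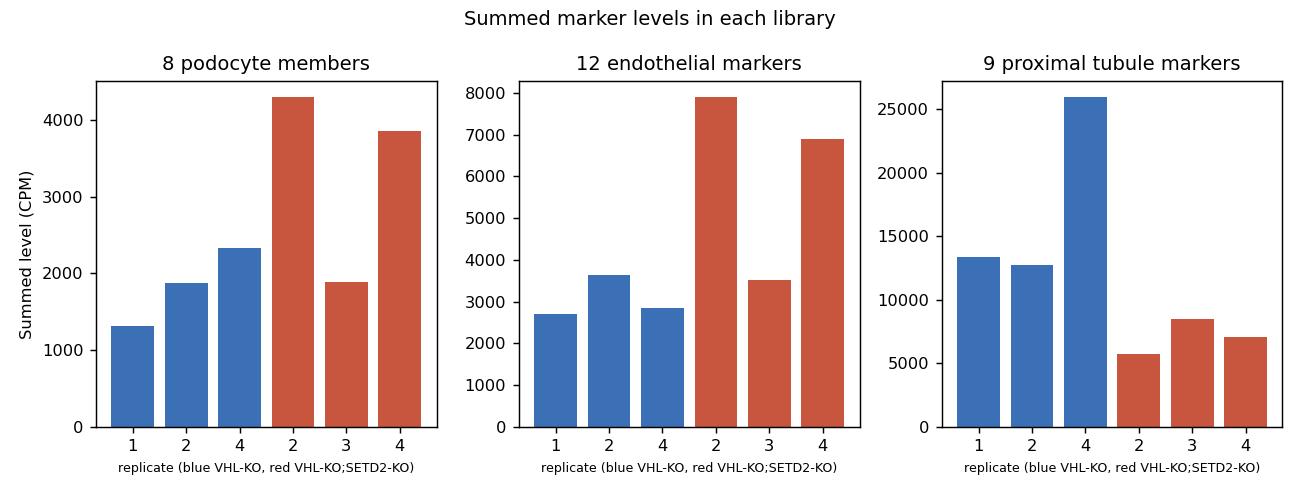
Summed CPM (linear axes from 0) of the 8 podocyte genes, 12 endothelial markers and 9 proximal tubule markers in each library, by replicate number, with VHL-KO labels in blue and VHL-KO;SETD2-KO labels in red. Replicates 2 and 4 of the second label are highest for the podocyte and endothelial genes, and all 3 libraries of that label are lowest for the proximal tubule markers.

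The genes whose log2 CPM over the 6 libraries was most like the mean z-score of the 8 members were ranked by Pearson's r among 13798 genes at 1 CPM or more. The first 8 were Hs3st3a1, Rdh9, Soga1, Cers4, Ccdc8, Iffo2, Cbfa2t3 and St3gal5, with r from 0.990 to 0.999. Hs3st3a1, a heparan sulfate sulfotransferase gene, was at 3.21, 4.996 and 5.61 CPM under the VHL-KO label and at 12.2, 5.91 and 10.98 CPM under the second. Its r was 0.999 with all libraries and without VHL-KO replicate 4. Of the other podocyte genes, Sptan1 ranked 17, Nes 32, Kirrel 35 and Myo1e 55. With 6 points that share their libraries, high values of r are easily reached, and no p is attached.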

How the data were processed

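Gene counts were available for 6 RNA-seq libraries of mouse PTECs. The authors isolated RNA with Trizol and sequenced directional paired-end Illumina libraries, and deposited raw counts per gene symbol. HISAT2 2.0.4 and GRCm38 are named in the submitters' processing notes. The counting program, annotation and strand setting are not given in the sources used here, so reads of overlapping antisense genes cannot be assigned with certainty. Unused per-sample columns numbered 0.

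From the deposited counts, genes passing filterByExpr were fitted with TMM factors and edgeR 4.0.16 (R 4.3.3, quasi-likelihood test, genotype label only). Calls needed p under 0.05, unadjusted or Benjamini-Hochberg adjusted over all tested genes, and 1.5 as the least fold change in either direction. A prior count of 2 entered the log2 CPM. DESeq2 1.42.0, the study's tool, and limma-voom 3.58.1 were alternatives, beside other scaling, filters, a replicate block and leaving out each library. The fits were tested on simulated data. The detection floor covers counting error only, whereas SDs and standard errors reflect the spread between libraries.

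The members and lists were chosen with earlier results of these data known. Named genes were the members, the deleted genes, listed podocyte genes that were called or did not overlap, a fixed core of that list, the 2 most abundant and all called markers per other cell type, and the 8 genes most like the members. Lengths, GC content and coordinates came from GENCODE M21 (GRCm38), with a value for 87.7% of tested genes and for all 70 podocyte genes. Some genes of the lists entered the counts and sums but are not reported here by name.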

Additional observations from a re-analysis of the deposited data

How the results depend on the processing

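The median log2 fold change of the 8 members stayed between 0.85 and 1.33 with each library left out and moved by less than the spread between replicates in all 15 alternatives. Of 120 values of single members under these alternatives, 115 were above 0. The 5 below 0 were Synpo at -0.16 and -0.11 without VHL-KO replicates 1 and 2, and Cdkn1c at -0.32, -0.25 and -0.14 without VHL-KO replicate 1, VHL-KO replicate 2 and VHL-KO;SETD2-KO replicate 2. Synpo and Cdkn1c ranged up to 1.39 and 1.23, both without VHL-KO replicate 4. With each library left out, the members without overlap numbered 3 to 6, the other podocyte genes called higher 1 to 27 and lower 0 to 1, all genes called higher 179 to 1243 and lower 206 to 1078 (adjusted, lower, 0 to 1), and markers of other cell types 1 to 8 higher and 1 to 8 lower. Other podocyte genes called lower became 1 with RLE size factors, with DESeq2 and with no filter. DESeq2 called 1133 of all genes lower at the unadjusted p, and after adjustment 1 higher and 50 lower of the 1292 genes with an adjusted p. Without a filter 634 of all genes were higher at the unadjusted p, while after adjustment 0 were higher and 2 lower, and with at least 10 counts in every library 0 were lower after adjustment. DESeq2 without VHL-KO replicate 4 called 30 other podocyte genes, 1425 genes in all and 16 markers higher and 1093 genes lower, and after adjustment 16 podocyte genes and 534 genes higher and 704 lower. The causes were not tested.

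Replicate numbers 2 and 4 occur under both labels, but nothing says that they pair the mice, and the deviations of same-numbered libraries correlated at 0.165 and -0.319. With the replicate number as a block, 1 other podocyte gene, 93 genes and 0 markers were higher and 54 genes and 2 markers lower. With numbers 2 and 4 crossed, added after that check, the counts were 1, 143 and 0 higher and 85 and 2 lower. No other podocyte gene passed an adjusted p in edgeR, with or without VHL-KO replicate 4, whereas 9 and 27 passed the unadjusted one.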
